A study of Mus musculus with 6 samples.

Results

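The genes for the protein components of the cytoplasmic ribosome were examined in a map of accessible chromatin of R1 mouse embryonic stem cells. Members were the protein-coding genes whose symbol is Rpl or Rps followed by digits and at most 1 letter, together with Rplp0, Rplp1, Rplp2 and Rpsa. The rule found 81 of 21887 protein-coding genes, 50 of the large (60S) and 31 of the small (40S) subunit. An accessible region was read at a gene when its midpoint lay within 2.5 kb of either annotated limit of the gene, and 145 of the 69689 deposited regions met this at a member.

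The regions come from 6 ACC-seq libraries, in which the transposase Tn5 cuts and tags open DNA, made from wild-type R1 cells, 2 libraries for each of 3 groups. Cells labelled Fresh were unfixed and tagmented for 30 min at 37 °C. Cells labelled Fix were held in 1% formaldehyde for 10 min and tagmented for 30 min at 55 °C. Cells labelled Fix, 1,6-Hex were exposed to 10% (w/v) 1,6-hexanediol, an alcohol that disperses many protein condensates, for 30 s, fixed in 1% formaldehyde for 10 min with the hexanediol still present, and tagmented as the Fix cells. All cells were of 1 line, grown on mouse embryonic fibroblast feeders with serum, LIF and 2i, and the feeders were removed by replating before use. The deposited table gives 1 set of regions for all libraries, each with a position and the name of 1 of 9 clusters assigned by the authors. It holds no signal, depth or replicate value, so the 3 groups cannot be compared at any member and no test between them was possible. The sources used here do not give what sets the clusters apart, and a cluster number is used below only as a name. Shares carry exact binomial (Clopper-Pearson) 95% intervals, which cover only the counting of genes or regions.

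Each ribosome is built from 1 copy of nearly every ribosomal protein, so these genes are expressed together and at high levels in dividing cells, stem cells included. Their promoters usually lie in CpG islands and lack a TATA box. The messenger RNAs typically begin with a C inside a run of pyrimidines, the 5′ terminal oligopyrimidine (TOP) motif, through which mTOR signalling and Larp1 control their translation. Large-subunit proteins surround the peptidyl transferase centre, the exit tunnel and the factor-binding stalk, and small-subunit proteins line the decoding centre and the path of the messenger RNA.

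The pyrimidine run at the start of transcription is the best known shared sequence of the family, and its form at members from different clusters is shown first. RefSeq promoters of the GRCm38.p6 build (mm10), with strand, were at hand for 61 members. The sequences below run 5′ to 3′ from 60 bases before the annotated start and the start is base 61. Capitals mark the unbroken run of C and T that covers the start. Rps6, Rplp2, Rpl15, Rps15a and Rpl14 carry such a run, and their start regions fell in clusters 1, 2, 3, 5 and 8. Rplp0, Rpsa and Rps4x have none at the annotated base, and their start regions fell in clusters 4, 6 and 8.
Rps6 (chr4:86857348-86857427, minus strand): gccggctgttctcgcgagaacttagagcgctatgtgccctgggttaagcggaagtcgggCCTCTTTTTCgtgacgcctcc
Rplp2 (chr7:141447591-141447670, plus strand): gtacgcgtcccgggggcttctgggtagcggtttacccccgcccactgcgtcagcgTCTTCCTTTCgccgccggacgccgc
Rpl15 (chr14:18270967-18271046, minus strand): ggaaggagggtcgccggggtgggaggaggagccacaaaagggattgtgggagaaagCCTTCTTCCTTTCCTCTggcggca
Rps15a (chr7:118116128-118116207, minus strand): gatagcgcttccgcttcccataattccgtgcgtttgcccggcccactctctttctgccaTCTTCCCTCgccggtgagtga
Rpl14 (chr9:120571457-120571536, plus strand): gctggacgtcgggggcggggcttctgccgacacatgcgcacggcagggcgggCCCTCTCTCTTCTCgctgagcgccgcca
Rplp0 (chr5:115559407-115559486, plus strand): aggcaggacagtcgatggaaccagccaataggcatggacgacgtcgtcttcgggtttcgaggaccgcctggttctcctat
Rpsa (chr9:120127706-120127785, plus strand): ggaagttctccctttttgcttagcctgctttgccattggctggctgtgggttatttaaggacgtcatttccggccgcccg
Rps4x (chrX:102189372-102189451, minus strand): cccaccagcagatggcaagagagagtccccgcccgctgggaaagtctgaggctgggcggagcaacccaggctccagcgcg

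Among the 61 promoters, 19 (31.1%) had at least 5 pyrimidines in a row across the annotated start, against 9.08% of the 12112 other genes that had both a region and a promoter in the table. A start on C followed by pyrimidines for at least 5 bases in all was present in 13 members (21.3%) and in 2.27% of those other genes. The 13 were Rpl14, Rpl15, Rpl28, Rpl32l, Rpl35, Rpl38, Rplp2, Rps10, Rps15a, Rps18, Rps21, Rps27 and Rps6. The run of 5 was about as frequent where the region over the start, whole-gene regions included, was in cluster 2, 3 or 4 (30.3% of 33 members) as where it was in another cluster (32.0% of 25). Annotated starts can be off by a few bases, and the absence of a run at the annotated base says nothing of the transcript in use.

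The motifs below were searched on both strands of the 300-base promoter window, and matches of different motifs could overlap. CCGGAA, the core that ETS factors such as GABP read, was in 30 members (49.2%), 25.0% of other genes with a region and 19.0% of all 17431 other promoters. ATGGCG, a core read by YY1 that can also be a start codon followed by GCG, was in 18 members (29.5%), against 14.2% and 11.2%. GGGCGG, read by SP1, was in 35 members (57.4%), against 61.8% and 46.3%. TATAAA was in 7 members (11.5%, against 7.69% and 13.3%), CACGTG, the E-box read by MYC, in 5 (8.20%, against 9.78% and 7.91%), and GCATGCGC, part of the NRF1 site, in 2 (3.28%, against 4.87% and 3.61%). CCGGAA was present in 54.5% of members whose start region was in cluster 2, 3 or 4 and in 44.0% of those with another cluster. ATGGCG was present in 21.2% and 44.0% of the same groups. The median GC content of the members' window was 57.0%, against 60.5% in other genes with a region, and the median ratio of observed to expected CpG was 0.857 against 0.734.

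Nearly every ribosomal protein gene had an accessible region at one of its limits. Of 81 members, 80 (98.8%, 95% interval 93.3% to 99.97%) had at least 1 region, compared with 15194 of 21806 other protein-coding genes (69.7%). The exception was Rpl32l (chr10:20208439-20209030), an annotated gene of 592 bp. A single region was present at 24 members, 2 regions at 46 and at least 3 at 10. At least 2 regions were therefore present at 70.0% of covered members, against 34.0% of other covered genes. The members with 3 regions were Rpl13, Rpl17, Rpl19, Rpl27a, Rpl37a, Rplp2, Rps10, Rps14, Rps15a and Rps25.

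Ribosomal protein genes are short, with a median length of 3175 bp (592 to 11774 bp) against 17169 bp over all protein-coding genes, and in 68 members the windows around both limits overlapped. Values are therefore also set against the 4759 covered other genes of at most 11774 bp, the length of Rps15a, the longest member. These are called short genes below. Of them, 39.1% had at least 2 regions.

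A pair of separate regions, one at the start and another nearer the 3′ limit, was the usual arrangement. Strand was known for 60 covered members, and 58 of them had a region that held an annotated start or the 5′ limit. In 43 of those 58 (74.1%, 61.0% to 84.7%), another region lay nearer the 3′ limit, compared with 36.2% of 3017 short genes with a start region and 30.2% of all other genes with one. A region that held the whole gene was found at 5 of the 58, Rpl10a, Rpl12, Rpl13a, Rpl41 and Rps28 (8.62%, against 4.24% of short genes). The 10 members with a start region and no end region were Rpl10l, Rpl34, Rpl35, Rpl36a, Rpl39, Rpl39l, Rps13, Rps27l, Rps4x and Rps7. At Rpl19 and Rpl3l no region was read at an annotated start or 5′ limit. The annotated start of Rpl19 lies 4707 bp past its 5′ limit and more than 2.5 kb from either limit. A region centred there would not have been read, so nothing can be said of that start. The nearest region read at Rpl19 began 85 bp inside the gene and held the start of Cacnb1. The same limit applies to Rpl18, whose annotated start lies 2604 bp past its 5′ limit and more than 2.5 kb from either limit. Rpl18 is counted among the 58 because a region held its 5′ limit, and that region also held the start of Sphk2. At Rpl3l, a paralog used in heart and skeletal muscle, the one region lay at the 3′ end and held the start of Msrb1.

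**Figure D1:**
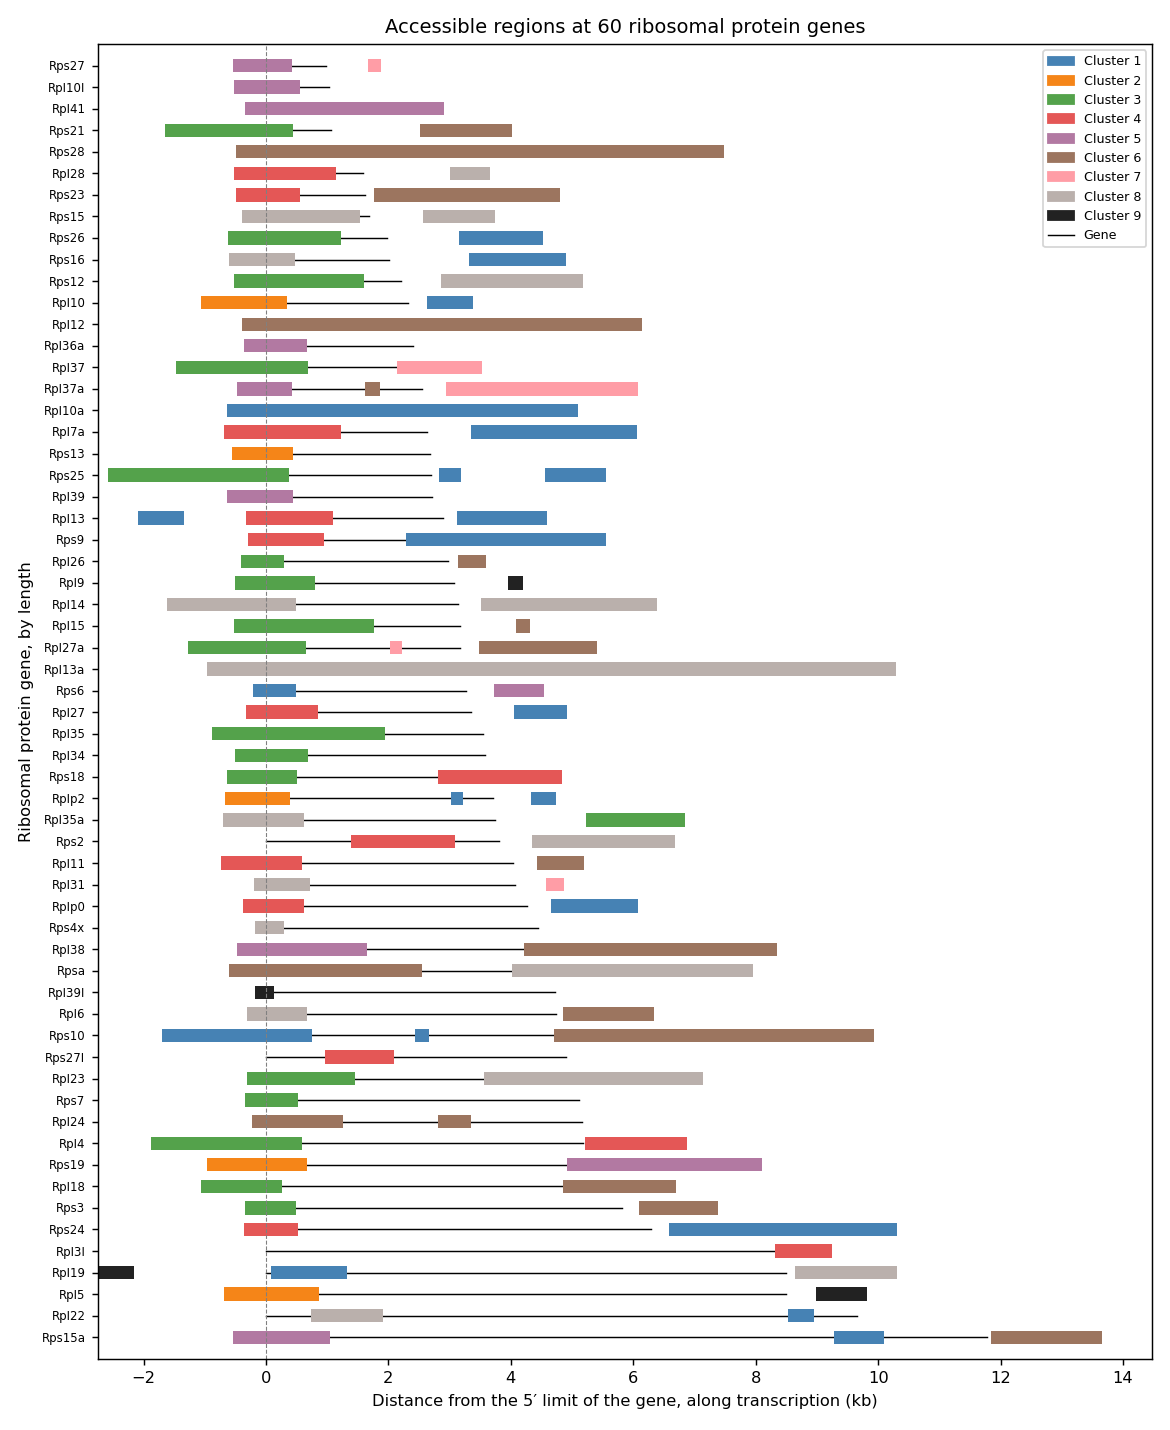
Accessible regions at the 60 covered ribosomal protein genes of known strand, ordered by gene length and aligned at the 5′ limit (x axis, kb along transcription). Black lines are genes and coloured blocks are regions by cluster. Most genes show 1 block over the start and another, mostly of a different cluster, near or past the 3′ limit, and 5 genes lie inside a single block.

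The end regions lay mostly outside the annotated gene. Of 51 end regions at members, 44 (86.3%) had their midpoint past the 3′ limit, against 62.4% of 1796 end regions of short genes. Entirely past the limit were 34, which began a median of 469 bp beyond it (31 to 1873 bp), and 10 held the limit. At 1 kb past the 3′ limit, 39 of 60 members (65.0%, 51.6% to 76.9%) were inside a region, compared with 13.0% of 3790 short genes. At 2 kb the shares were 45.0% and 12.1%, at 3 kb 26.7% and 10.9%, and at the limit itself 25.0% and 10.9%. The 5′ limit lay in a region at 91.7% of members and 75.4% of short genes, whereas 1 kb upstream of it the shares were 15.0% and 15.8%, and 2 kb upstream 3.33% and 7.92%.

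**Figure D2:**
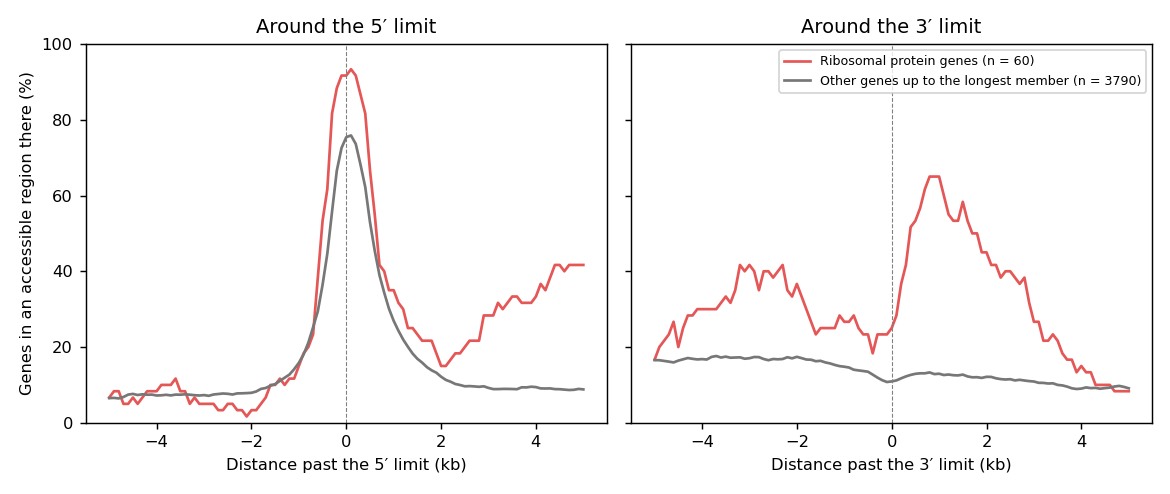
Share of genes that lie in an accessible region (y axis, %) at each distance from the 5′ limit (left) and the 3′ limit (right), in kb, for 60 ribosomal protein genes and 3790 other genes up to the longest member. The curves meet upstream of the 5′ limit and separate past the 3′ limit, where members reach 65.0% at 1 kb against 13.0%. The rise left of the 3′ limit falls where the starts of short members lie.

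Some end regions coincided with a neighbouring promoter. Of the 51, 10 held the annotated start of another protein-coding gene: Fam83e at Rpl18, Lmln at Rpl35a, Ttyh2 at Rpl38, Msrb1 at Rpl3l, Snapc5 at Rpl4, Surf1 and Surf2 at Rpl7a, Gcn1 at Rplp0, Apc2 at Rps15, B3galt4 at Rps18 and Ndufb10 at Rps2. All 4 end regions of clusters 3 and 4 (Rpl35a, Rpl3l, Rpl4 and Rps18) were of this kind, compared with 6 of the 47 end regions of the remaining clusters. This split by cluster was not counted at short genes, so it cannot be called a trait of the members. Over all clusters, the share was near the background. Among genes that also had a start region, 10 of 49 end regions at members (20.4%) held the start of any other gene, against 262 of 1224 at short genes (21.4%). Without end regions that held a start of any other gene, 33 of 58 members (56.9%, 43.2% to 69.8%) still had one, against 28.6% of short genes. Start regions were shared too. Of 53 at members, 6 held the start of another protein-coding gene and 10 that of any other gene. Of the 5 whole-gene regions, 3 held the start of another protein-coding gene (at Rpl12, Rpl41 and Rps28). These counts were not made at short genes, and clusters and widths of start regions include the shared ones.

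How often an end region was read depended on the window. With midpoints allowed up to 1 kb from a limit, 36.5% of members with a start region had one (12.7% of all other genes), with 500 bp 10.0% (5.24%), and with 5 kb 78.0% (48.3%). The members' share was the higher at each of these widths, but with 500 bp its interval (2.79% to 23.7%) held the share of other genes. Short genes were compared with the window of 2.5 kb alone.

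The members' regions were spread over all 9 clusters, with shares of genes above the background in clusters 3, 4, 5 and 6 and below it in cluster 9. Shares of genes rise with the number of regions per gene, and more members had at least 2 (70.0% against 34.0%). Counted by region, clusters 3, 4, 5 and 6 made up 15.9%, 15.9%, 6.90% and 17.9%, against 9.78%, 9.21%, 4.08% and 7.51% at other genes. Cluster 9 made up 3.45%, against 14.4%. Cluster 6 was found at 25 of 80 covered members (31.25%, 21.3% to 42.6%), against 10.1% of other covered genes. Among them were Rpl11, Rpl12, Rpl15, Rpl17, Rpl18, Rpl21, Rpl24, Rpl26, Rpl27a and Rpl30. Cluster 4 was found at 23 members (28.75%, 19.2% to 40.0%; Rpl11, Rpl13, Rpl21 and Rpl23a come first by name) against 13.5%, and cluster 3 at 22 (27.5%, 18.1% to 38.6%; Rpl15, Rpl17, Rpl18 and Rpl23) against 14.2%. Cluster 5 was found at 10 members (12.5%, 6.16% to 21.8%), namely Rpl10l, Rpl36a, Rpl37a, Rpl38, Rpl39, Rpl41, Rps15a, Rps19, Rps27 and Rps6, against 5.47%.

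For clusters 1, 2, 7 and 8 the members' interval held the background with the window of 2.5 kb. Counted by region, these made up 15.9%, 4.83%, 3.45% and 15.9% at members, against 21.9%, 5.98%, 8.21% and 18.9% at other genes. The shares that follow are of genes. Cluster 1 was at 19 members (23.75%), 10 of them Rpl10, Rpl10a, Rpl13, Rpl19, Rpl22, Rpl27, Rpl7a, Rplp0, Rplp2 and Rps10, against 27.3%. Cluster 8 was at 22 (27.5%; Rpl13a, Rpl14 and Rpl19 among them) against 25.5%. Cluster 2 was at 7 (8.75%), Rpl10, Rpl5, Rplp2, Rps13 and Rps19 among them, against 9.23%, and cluster 7 at 5 (6.25%), Rpl27a, Rpl31, Rpl37, Rpl37a and Rps27, against 10.5%. Cluster 9 was at 5 members (6.25%, 2.06% to 14.0%), Rpl19, Rpl39l, Rpl5, Rpl9 and Rplp1, against 17.9%. Among short genes alone the background was 13.3% for cluster 3, 13.5% for cluster 4, 10.4% for cluster 6 and 19.4% for cluster 9.

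**Figure D3:**
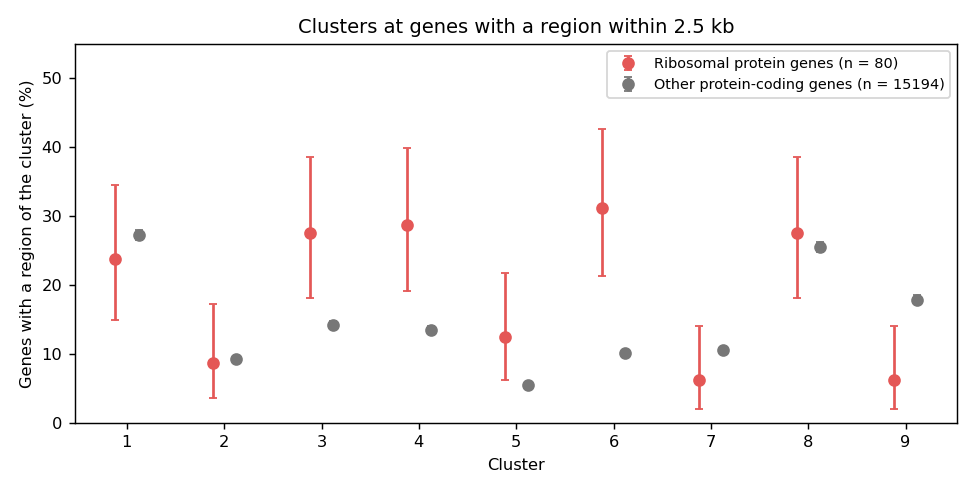
Share of genes with at least 1 region of each cluster (y axis, %), among 80 covered ribosomal protein genes and 15194 other covered protein-coding genes. Bars are exact binomial 95% intervals. Members stand above the background in clusters 3, 4, 5 and 6, with 31.25% against 10.1% in cluster 6, and below it in cluster 9.

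The order for cluster 6 turned under one definition. When any base of overlap between region and gene counted, with no window outside the gene, cluster 6 was at 16.25% of covered members and at 21.5% of other covered genes. That definition leaves out regions wholly past the 3′ limit and takes in regions along the body of long genes. What part this had in the order was not tested. With the nearest region alone the shares were 10.0% and 5.92%, with 1 kb 17.3% and 6.64%, with 500 bp 5.26% and 4.64%. Over the 10 other settings tried, the members' interval lay above the background in 9 for cluster 4, 8 for cluster 3, 7 for cluster 6 and 5 for cluster 5, and below it in 8 for cluster 9. The interval for cluster 3 held the background with 500 bp (19.3%, 10.0% to 31.9%, against 14.9%) and with the nearest region alone (18.75%, 10.9% to 29.0%, against 12.7%), and that for cluster 4 held it among members with at most 1 named pseudogene (25.7%, 12.5% to 43.3%). For cluster 5, autosomes alone gave 10.5% (4.66% to 19.7%) against 5.07%, and any overlap gave 11.25% against 10.7%, so its place above the background was lost in both.

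Start and end regions carried different clusters. The counts of start regions here leave out the 5 regions that held a whole gene, which were in clusters 1 (Rpl10a), 5 (Rpl41), 6 (Rpl12 and Rps28) and 8 (Rpl13a). Clusters 2, 3 and 4, pooled after their counts were seen, held 33 of 53 start regions at members (62.3%), compared with 38.5% of 2897 start regions at short genes, and 4 of 51 end regions (7.84%, against 10.4%). Cluster 3 alone made up 32.1% of start regions (19.9% to 46.3%; short genes 13.9%), and cluster 5 made up 13.2% (5.48% to 25.3%; 4.76%). Cluster 1 was rare at the members' starts (2 regions, 3.77%, against 17.9%). Cluster 6 made up 14 end regions (27.5%, 15.9% to 41.7%, against 9.63%) and 2 start regions (3.77%, against 5.80%), at Rpl24 and Rpsa. Cluster 9 made up 2 end regions (3.92%), whereas it was 23.7% of the end regions of short genes. Of 49 pairs of start and end region at the 43 genes, 4 were of the same cluster. In 24 pairs the start was in cluster 2, 3 or 4 and the end in cluster 1, 6 or 8, and in 24 pairs the end region was the wider. Pairs were not counted at short genes, so these counts describe the members alone. Whether they differ from what the separate start and end shares would give was not tested.

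**Figure D4:**
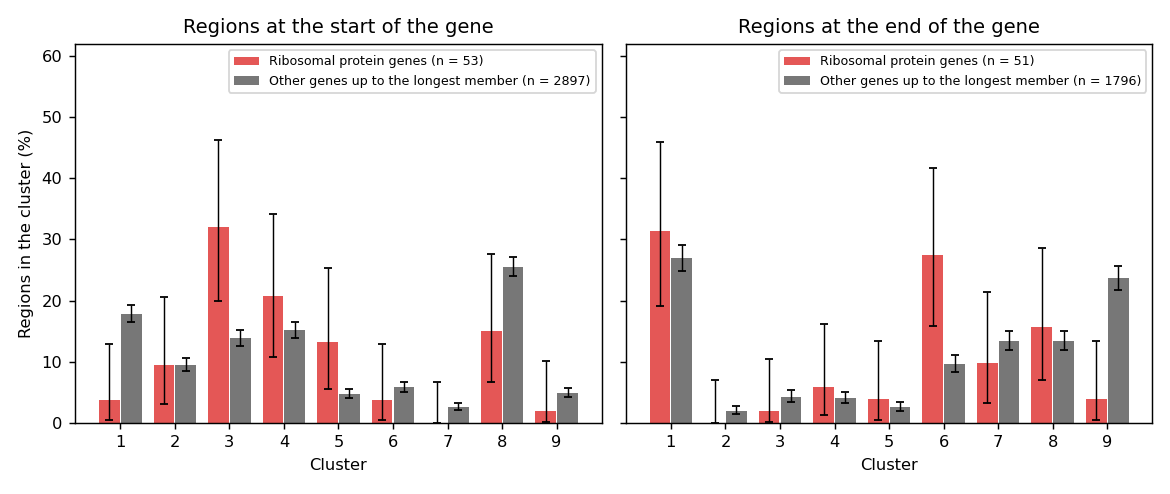
Share of regions in each cluster (y axis, %) at the start (left) and at the end (right) of genes of known strand, for ribosomal protein genes and for other genes up to the longest member. Bars with lines are shares with exact binomial 95% intervals. Members lead in cluster 3 at the start (32.1% against 13.9%) and in cluster 6 at the end (27.5% against 9.63%), and trail in cluster 9 at the end.

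Regions at ribosomal protein genes were wide. Their median width was 1397 bp (95% interval of the median 1242 to 1618 bp, quartiles 936 and 2131 bp), against 929 bp (917 to 943 bp) at other genes and 908 bp at short genes. At least 3 kb was reached by 23 of the 145 (15.9%), compared with 4.49% at other genes, 5.92% at short genes and 2.10% of all regions. The difference was mainly in end regions, with a median of 1397 bp against 586 bp at short genes, while start regions had medians of 1324 and 1203 bp. Among genes with a start region, end regions that held no other gene's start had medians of 872 and 476 bp. By cluster, the members' median was 1828 bp in cluster 6 (short genes 916.5 bp), 1934 bp in cluster 8 (1023 bp), 1618 bp in cluster 3 (1291 bp) and 1414 bp in cluster 4 (1446.5 bp). The median covered member had 28.7% of its length in regions, against 12.5% for short genes.

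The widest region, 11257 bp of cluster 8, spanned Rpl13a and was the seventh widest of the table. The next widest was one of 7976 bp in cluster 6 at Rps28 (chr17:33817076-33825051). Rps28 itself is 1527 bp long, and its region also held the start of the neighbour Ndufa7. The narrowest regions, at the 200 bp minimum of the table, were end regions of Rpl27a and Rps27 (both cluster 7) and of Rplp2 (cluster 1). Regions wholly covered 9 members (11.25%, against 2.92% of short genes), with Rpl10a, Rpl12, Rpl13a, Rpl41, Rps20, Rps28 and Rps29 among them.

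The genes of the stalk, which recruits the translation factors, differed among themselves. Rplp0, the stalk base, had a start region of 986 bp in cluster 4 and an end region of 1425 bp in cluster 1 that held the start of Gcn1. Rplp2 had a start region of 1067 bp in cluster 2 and end regions of 200 and 407 bp in cluster 1. Rplp1, without strand in the tables used, had regions of 1021 bp in cluster 3 and 237 bp in cluster 9.

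Rpl5 and Rpl11, which bind 5S rRNA and restrain Mdm2 when ribosome assembly fails, had different clusters at both limits. Rpl5 had 1553 bp of cluster 2 at the start and 836 bp of cluster 9 at the end. Rpl11 had 1329 bp of cluster 4 at the start and 771 bp of cluster 6 at the end. At the exit tunnel, Rpl4 had 2468 bp of cluster 3 and 1669 bp of cluster 4, the latter over the start of Snapc5. Rpl17 had regions of 936 and 1121 bp in cluster 3 and 436 bp in cluster 6, and Rpl39 had a single start region of 1078 bp in cluster 5.

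In the small subunit, Rps2 and Rps3, at the entry of the messenger RNA channel, had start regions of 1700 bp (cluster 4) and 834 bp (cluster 3) and end regions of 2345 bp (cluster 8) and 1297 bp (cluster 6). Rpsa, also known as the laminin receptor, had wide regions at both limits, 3151 bp of cluster 6 and 3935 bp of cluster 8. Rps6, the target of S6 kinase, had a start region of cluster 1 (696 bp) and had an end region of cluster 5 (817 bp). Rps10 also had cluster 1 at its start, over 2453 bp, and an end region of 5227 bp in cluster 6.

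Of the genes mutated in Diamond-Blackfan anaemia, an inherited failure of red cell production, Rps19 had 1636 bp of cluster 2 at the start and 3183 bp of cluster 5 at the end. Rps24 had 877 bp of cluster 4 and 3736 bp of cluster 1, and Rps26 1859 bp of cluster 3 and 1371 bp of cluster 1. Rpl35a had 1324 bp of cluster 8 at the start, which also held the start of Iqcg, and 1618 bp of cluster 3 over the start of Lmln. Rps7 had only a start region, 865 bp of cluster 3.

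Rpl38, required for translation of a subset of Hox messenger RNAs, had a start region of 2131 bp in cluster 5 and an end region of 4128 bp in cluster 6 that held the start of Ttyh2. Rpl22 had 1173 bp of cluster 8 and 421 bp of cluster 1. Rps14, whose loss is linked to the 5q deletion anaemia, had regions of 862, 1659 and 373 bp in clusters 6, 4 and 1. The paralogs with tissue-restricted use each had 1 region: 1085 bp of cluster 5 at Rpl10l, a testis gene, 318 bp of cluster 9 at Rpl39l and 939 bp of cluster 4 at Rpl3l.

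Of the 4 X-linked members, Rpl36a and Rpl39 had start regions of cluster 5 (1034 and 1078 bp), Rpl10 had 1397 bp of cluster 2 and 751 bp of cluster 1, and Rps4x had 481 bp of cluster 8. Cluster 5 made up 11.6% of all X-linked regions and 4.93% of autosomal ones, and the other 8 members with cluster 5 were autosomal.

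Large- and small-subunit genes had similar coverage, 49 of 50 and 31 of 31. The median region width was 1327 bp (1173 to 1496 bp) for the large and 1613.5 bp (1192 to 2092 bp) for the small subunit, so the intervals overlapped. The large subunit had the higher median with windows of 500 bp (1320 and 1170.5 bp) and 5 kb (1243 and 1219.5 bp). The small subunit had it in the other settings tried. At start regions alone the medians were 1325 bp for the large and 1194 bp for the small subunit. At least 3 kb was reached by 12.2% and 23.2% of regions. An end region was present at 25 of 35 large-subunit genes with a start region (71.4%, 53.7% to 85.4%) and at 18 of 23 small-subunit genes (78.3%, 56.3% to 92.5%), with median widths of 905.5 and 1591 bp. Cluster 6 was at 28.6% (16.6% to 43.3%) and 35.5% (19.2% to 54.6%) of covered genes, with median widths of 1488 and 3151 bp. Cluster 1 was at 18.4% and 32.3%, cluster 3 at 30.6% and 22.6%, and cluster 4 at 30.6% and 25.8%. Cluster 9 was at 5 large-subunit genes and at none of 31 small-subunit genes, which allows a share of up to 11.2% (exact upper limit). Past the 3′ limit, the large subunit fell from 67.6% of genes in a region at 1 kb to 35.1% at 2 kb, while the small subunit stayed at 60.9%. The differences between the subunits were not tested, since the genes are not replicates and their intervals overlapped.

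**Figure D5:**
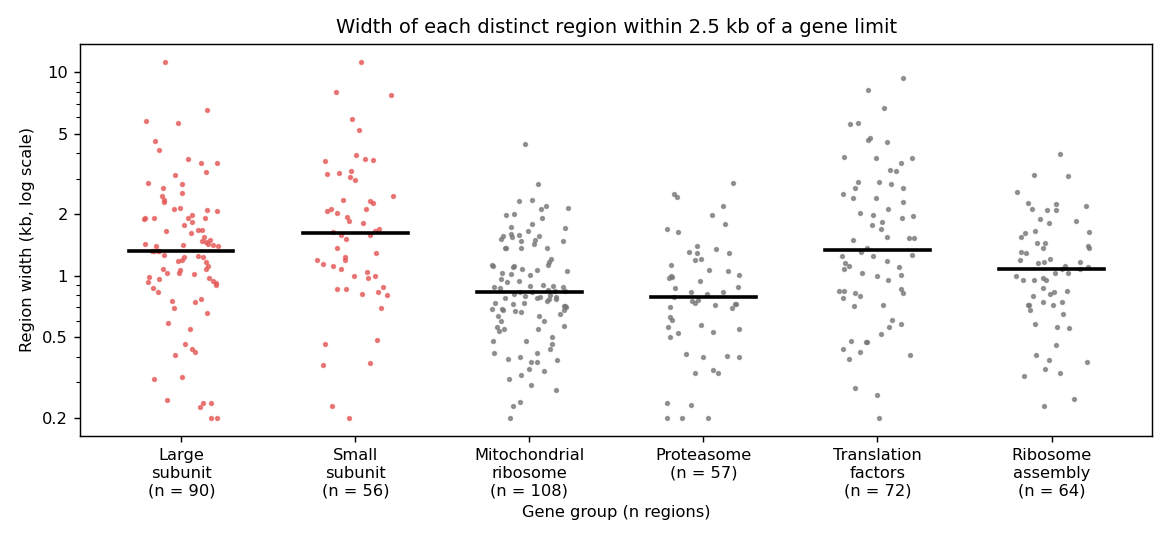
Width of each distinct region (y axis, kb, log scale) within 2.5 kb of a limit of large- and small-subunit genes and of 4 other gene groups, 1 point per region, with medians as black lines. Medians are 1327 and 1613.5 bp for the subunits, and the widest point, 11257 bp, stands in both because 1 region was read at a gene of each subunit.

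Other gene groups of protein synthesis and turnover were set beside the members. Mitochondrial ribosomal protein genes all had a region (78 of 78), with a median width of 832.5 bp. Of their 68 genes with a start region 32.4% (21.5% to 44.8%) had a separate end region, and 10.1% of 69 lay in a region 1 kb past the 3′ limit. Proteasome subunit genes (39 of 39 covered) had a median of 784 bp, an end region at 36.7% (19.9% to 56.1%) and 3.12% in a region at 1 kb. Translation factor genes (46 of 47) were the nearest to the members, with a median of 1334 bp, an end region at 48.6% (31.4% to 66.0%), 34.3% in a region at 1 kb and cluster 6 at 23.9% of genes. Ribosome assembly factors (43 of 44) had 1081 bp, 44.4% (27.9% to 61.9%), 19.4% and 20.9%. Other traits of the members were shared by these groups. Cluster 2, 3 or 4 was at 60.9% of translation factor genes and 60.5% of assembly factor genes, against the members' 61.25%. Cluster 5 was at 17.4% of translation factor genes (members 12.5%), and 19.4% of their regions reached 3 kb (members 15.9%). Cluster 4 was at 28.3% of translation factor genes and 27.9% of assembly factor genes (members 28.75%). Cluster 9 was at 2.17% of translation factor genes, below the members' 6.25%. It was at 14.0% of assembly factor, 14.1% of mitochondrial ribosomal protein and 12.8% of proteasome subunit genes. The members' 74.1% and 65.0% were the highest of these groups, and the interval of the end region share overlapped that of translation factors and assembly factors. At 1 kb the members' interval (51.6% to 76.9%) overlapped that of translation factors (19.1% to 52.2%). The groups were not matched for gene length. Their medians were 7690.5 bp (mitochondrial ribosome), 12293 bp (proteasome), 15046 bp (translation factors) and 14639 bp (assembly factors), against the members' 3175 bp.

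The 7 ribosomal protein genes whose symbols fall outside the rule, with Fau, Rack1, Rps3a1, Rpl36al, Rpl7l1 and Rpl22l1 among them, all had a region, and all 7 had one of cluster 2, 3 or 4 (100%, 59.0% to 100%), a pool formed after counts were seen, against 61.25% of covered members and 35.9% of other covered genes. Fau, a ubiquitin-like fusion, had 1210 bp of cluster 4 at the start and 1740 bp of cluster 8 at the end. Rack1 had 1287 bp of cluster 2 and 3174 bp of cluster 6. The ubiquitin fusion Rps27a, a member, had regions of 462 bp in cluster 1 and 2124 bp in cluster 4.

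Small nucleolar RNA genes lay inside 29 members, 58 in all, where they are released from introns. These hosts had a median summed region width of 3624 bp, against 2894 bp in the 51 other covered members, and cluster 8 was at 12 of 29 hosts and 10 of 51 others. Ribosomal protein genes also have many processed pseudogenes, and 312 were named for 58 of the members, with up to 23 for Rpl31 and Rps12. A region lay within 2.5 kb of 56 of them (17.9%, 13.9% to 22.7%), against 12.8% of 9641 other pseudogenes, with a median width of 428 bp. The sources used here do not give how reads that match a gene and its copies were placed, and their part in the regions at members was not tested. Among members with at most 1 named pseudogene, a group set after the data were seen, 61.5% of genes with a start region had a separate end region.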

How the data were processed

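The data are open-chromatin regions of R1 cells from 6 ACC-seq libraries. The submitters' processing notes name SAMtools 1.6, Picard, Bowtie2 2.3.3.1, cutadapt 1.18 and mm10. Region calling, merging and clustering are not given in the sources used here. Depth and its precision are unknown. The table the authors deposited lists position and cluster name and has no other value. Its positions count from 0 and were counted from 1 here.

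Regions were placed by midpoint against a RefSeq gene table (GRCm38.p6) that gives limits without exons. Strand, starts and promoters came from a RefSeq promoter table that held 61 of 81 members. A start region held an annotated start or the 5′ limit, and an end region was another region nearer the 3′ limit. Counts and medians are descriptions without tests. Placement was tested on simulated data. Other windows, overlap, nearest region and member rules were tried.

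Members and lists were chosen with earlier results of these data known. Named were members without a region, the 3 widest and 3 narrowest regions, members with 3 or more regions, the first members of each cluster by name, and genes of fixed roles. Members named beyond these (whole-gene regions, start regions alone, pyrimidine runs, neighbours' starts) were chosen after their values were seen. Values that name a few further genes are left out. Software: SciPy 1.17.1, pandas 2.3.3, numpy 2.4.6 and matplotlib 3.10.9 under Python 3.11.15.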

Additional observations from a re-analysis of the deposited data

How the results depend on the processing

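Of 158 values of the members under other settings, 131 lay within the 95% interval of the reported value and 27 outside it. The values of other genes, given in parentheses below, moved too, with 64 of 118 outside their interval. Both tallies include values that could not move. The limit to short genes changed only the comparison genes, so the members' values stayed the same by construction. Leaving out paralogs, or members with more than 1 named pseudogene, likewise left the values of other genes unchanged. The tallies are therefore no measure of stability. With a window of 500 bp, 70.4% of members had a region, clusters 1, 6, 7, 8 and 9 were at 8.77%, 5.26%, 1.75%, 17.5% and 1.75% of covered members (18.8%, 4.64%, 4.15%, 24.3% and 8.17%), cluster 6 was at 5.71% of large-subunit and 4.55% of small-subunit genes, the small-subunit median width was 1170.5 bp, and 10.0% (5.24%) of members with a start region had an end region. With 1 kb, 92.6% had a region, cluster 6 was at 17.3% (6.64%), at 18.5% in the small subunit, and the end region share was 36.5% (12.7%). With 5 kb, cluster 9 was at 17.5% (28.7%). With any overlap, clusters 1, 6 and 9 were at 11.25%, 16.25% and 1.25% (37.7%, 21.5% and 37.8%), and cluster 6 at 12.2% of large-subunit genes. With the nearest region alone, clusters 1, 6, 7, 8 and 9 were at 7.5%, 10.0%, 1.25%, 16.25% and 1.25% (20.0%, 5.92%, 5.15%, 21.6% and 9.88%), and cluster 6 at 6.12% of large-subunit and 16.1% of small-subunit genes. Cluster 1 lay below the background with any overlap and with the nearest region alone, and cluster 7 with any overlap (3.75% against 28.3%). These settings read fewer or more regions per gene by construction. Without the paralogs named with a trailing l, 100% of members had a region. The end region share was not computed for any overlap or the nearest region. The setting with at most 1 named pseudogene was added after seeing the data and moved no value outside its interval. Medians of width stayed above those of other genes under every setting. Depth and signal are unknown, so a gene without a region is one not listed, and no value speaks to Fresh, Fix or Fix, 1,6-Hex cells. No paired analysis was possible because the table has no value per library.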
